A study of Mus musculus with 2 samples.

Results

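Deep intronic GATA4 peaks are sites of GATA4 binding that lie inside a protein-coding gene, outside its exons, and far from the start of any protein-coding gene. They were taken from the authors' optimal peak list of a ChIP-seq experiment (chromatin immunoprecipitation followed by sequencing) on mouse liver. A peak was kept when its summit, the base of highest signal, lay in a protein-coding gene of GENCODE mouse release 21 (basic set), outside all protein-coding exons and more than 50 kb from the nearest protein-coding transcription start site. The readthrough gene Gm20388 was not accepted as a host. Of the 24050 peaks on chromosomes 1 to 19 and X, 2528 met this rule (10.5%). The rule used position alone, so the motifs, rank and replicate support of these peaks were free to vary.

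GATA4 was immunoprecipitated from whole livers of mice that were adult and healthy, with 1 group of 2 samples and no genotype, treatment or comparison group in the labels. Age was given as unknown and sex as not collected. The samples were labelled biological replicates 1 and 2 but carried the same biosample and donor identifiers, so differences between them may be technical only. Whole liver mixes hepatocytes with endothelial, stellate and immune cells, and a peak cannot be assigned to any of these from the data. Read depth is unknown from peak lists. Replicate 1's own thresholded list held 4287 peaks and replicate 2's 26314, so the optimal list resembled replicate 2's list in length.

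GATA factors are zinc-finger proteins that bind the sequence WGATAR (W stands for A or T, R for G or A). In the adult liver GATA4 is known for its role in the sinusoidal endothelium, the fenestrated lining of the liver capillaries. Binding sites within introns are common for such factors, and an intronic site can act as an enhancer of its host gene, of another gene, or of none. Position inside a gene therefore names a host, not a target.

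The sequences around 9 of the strongest deep intronic summits, chosen by signal, show what the site looks like where binding scored highest. The choice does not take in every strong summit: the peak of rank 118, in Ctif, lacked the site and is not printed. Each is 101 bases of the mm10 forward strand centred on the summit, and the capitals mark WGATAR on either strand.
St3gal4, chr9:35059126-35059226: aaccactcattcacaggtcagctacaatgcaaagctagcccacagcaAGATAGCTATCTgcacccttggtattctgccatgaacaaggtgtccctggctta
Bmper, chr9:23453379-23453479: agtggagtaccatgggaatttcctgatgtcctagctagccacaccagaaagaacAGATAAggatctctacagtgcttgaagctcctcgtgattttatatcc
Plxnc1, chr10:94801020-94801120: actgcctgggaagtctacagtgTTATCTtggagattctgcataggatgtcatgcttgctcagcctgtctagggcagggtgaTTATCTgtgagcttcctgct
Fars2, chr13:36621126-36621226: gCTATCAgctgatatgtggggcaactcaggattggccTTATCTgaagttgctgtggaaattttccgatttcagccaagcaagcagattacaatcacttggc
Klf7, chr1:64041050-64041150: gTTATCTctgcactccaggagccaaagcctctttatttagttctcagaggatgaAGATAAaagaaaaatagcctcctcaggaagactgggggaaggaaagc
Zbtb16, chr9:48723779-48723879: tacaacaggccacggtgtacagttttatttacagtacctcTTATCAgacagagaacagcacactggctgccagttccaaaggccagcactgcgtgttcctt
Itpr1, chr6:108466401-108466501: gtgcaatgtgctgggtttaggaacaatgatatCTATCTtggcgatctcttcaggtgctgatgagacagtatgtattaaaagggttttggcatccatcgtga
Kank1, chr19:25382078-25382178: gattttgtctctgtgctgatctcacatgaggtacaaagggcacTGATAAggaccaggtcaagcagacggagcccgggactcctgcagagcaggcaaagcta
Flt1, chr5:147658032-147658132: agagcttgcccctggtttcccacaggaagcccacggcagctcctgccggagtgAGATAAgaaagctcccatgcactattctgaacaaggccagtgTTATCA
Of the windows shown, 5 held 2 sites and the rest 1. In the St3gal4 window the 2 sites adjoin and face opposite strands at the summit itself.

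The next 2 windows are strong deep intronic summits that had no WGATAR within 50 bp. The Tjp1 window contains GATA and TATC in other contexts, and the Babam2 window contains neither.
Tjp1, chr7:65472217-65472317: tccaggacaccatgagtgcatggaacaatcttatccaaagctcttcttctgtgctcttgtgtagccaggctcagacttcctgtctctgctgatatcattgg
Babam2, chr5:31767069-31767169: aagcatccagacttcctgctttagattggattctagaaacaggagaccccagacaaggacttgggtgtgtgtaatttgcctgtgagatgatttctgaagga

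The last 3 windows show the range of site number. The Rgl1 window is the strongest with 3 sites, the Dpyd window has the most overlapping matches of any member, and the Tns1 window is the strongest of a host whose 12 deep intronic summits all lacked the site.
Rgl1, chr1:152523436-152523536: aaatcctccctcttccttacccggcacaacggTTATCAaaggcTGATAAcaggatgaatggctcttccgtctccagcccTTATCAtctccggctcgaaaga
Dpyd, chr3:118671552-118671652: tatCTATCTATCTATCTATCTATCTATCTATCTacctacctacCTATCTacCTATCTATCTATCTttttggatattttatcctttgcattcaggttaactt
Tns1, chr1:74031179-74031279: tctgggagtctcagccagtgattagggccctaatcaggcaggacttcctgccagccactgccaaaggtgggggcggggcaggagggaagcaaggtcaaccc

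Most deep intronic peaks carried the GATA site, and their share was not distinguishable from that of intronic peaks nearer to a start site. A WGATAR lay within 50 bp of the summit in 1559 of the 2528 deep intronic peaks, or 61.7% (95% Wilson interval 59.8 to 63.5%), where 52.8% of all peaks of the optimal list had the site. In equally long windows, placed 500 bp away on both sides of these summits, the share was 19.3%. Nearer intronic peaks lay over 1 kb and at most 50 kb from the nearest protein-coding start site. Summits within 1 kb were classed as promoter peaks and left out. Promoter peaks had the site in 25.7%, and they are part of the 52.8% of all peaks. The 7150 nearer intronic peaks had the site in 61.2%, a difference of 0.48 percentage points (interval -1.74 to 2.67, two-sided Fisher's exact test adjusted p = 0.784). The 3685 peaks in gene deserts, which lie outside protein-coding genes and more than 50 kb from any protein-coding start site, had it in 59.1%. The difference from the deserts was 2.54 points (interval 0.06 to 5.001) with an unadjusted p of 0.0451 by Fisher's exact test and an adjusted p of 0.0901, which does not pass the threshold of 0.05. It was 0.28 points beyond a limit of 100 kb and 0.62 with the start sites of all genes (adjusted p = 0.947 and 0.898, Fisher's exact test). Adjusted values cover the 8 comparisons of deep intronic peaks with the other 2 classes, by the Benjamini-Hochberg method. Peaks are not replicates of the experiment, so these tests and intervals describe the lists and cover counting error over peaks only. In replicate 2's own list taken alone, deep intronic peaks had the site more often than both classes, by 2.59 points over nearer introns (adjusted p = 0.0270, Fisher's exact test) and 3.33 points over deserts (adjusted p = 0.0152), whereas in replicate 1's own list the difference from nearer introns was -3.01 points (adjusted p = 0.492).

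The site was concentrated at the summit. Among the 1559 peaks with a site, the nearest copy had its centre a median of 17.5 bp from the summit, and 69.3% had it within 25 bp. The plot of sites around summits has a peak of like height for deep intronic, nearer intronic and gene desert peaks, above flanks near 2 sites per 100 summits.

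**Figure D1:**
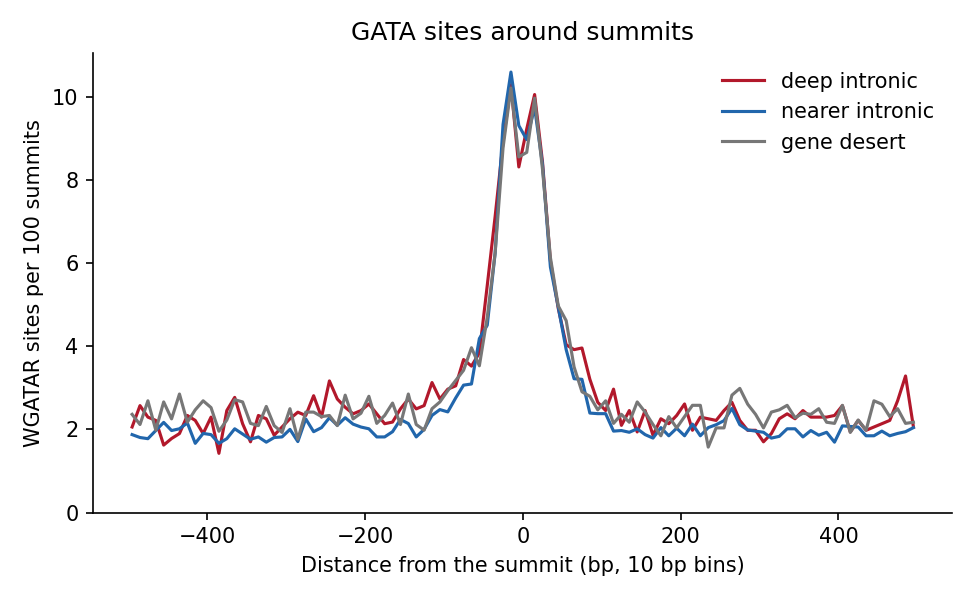
WGATAR sites on either strand per 100 summits, in bins of 10 bp, against distance from the summit for 2528 deep intronic, 7150 nearer intronic and 3685 gene desert peaks. The 3 lines rise together within about 50 bp of the summit.

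The most frequent form of the nearest site was AGATAA. It was the nearest site in 737 peaks (47.3% of those with a site), followed by TGATAA in 428 (27.5%), AGATAG in 238 (15.3%) and TGATAG in 156. AGATAA lay within 50 bp in 32.6% of all deep intronic peaks and in 6.67% of their flanks. Flank shares of the other forms are not given here, so the order of the forms is one of counts. The nearest site read WGATAR on the host gene's sense strand in 710 of the 1559 peaks, or 45.5% (interval 43.1 to 48.0%), so it read WGATAR on the antisense strand in the majority. In the flanks of the deep intronic peaks, 48.2% of 1156 sites were on the sense strand (interval 45.3 to 51.1%), and the 2 intervals overlap. 

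Site number varied among the members. No site was found in 969 peaks (38.3%), 1 in 1234, 2 in 291 and 3 or more in 34. Rank in this text is the place of a peak by the authors' signal score among the 24050 peaks, with 1 the strongest. The median rank was 13861 without a site, 10519 with 1, 8347 with 2 and 8799 with 3 or more. Replicate 1's list held 14.6% of the peaks without a site, 21.2% of those with 1 and 29.9% of those with 2. A high number of matches did not go with strength at the extreme: the Dpyd peak shown above, with 11 overlapping matches in a simple repeat, had rank 23514 and was in neither replicate's list. Dpyd encodes an enzyme of pyrimidine breakdown. Of the 969 peaks without WGATAR, 39.3% held the bare letters GATA within 50 bp and 42.3% of their flanking windows did. A WGATAR between 50 and 100 bp from the summit was found in 331 of them (34.2%).

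Among 20 sequence motifs searched on both strands within 50 bp, most of those with a higher share in deep intronic peaks than in their own flanks were also present in nearer introns at a like share. The flanks had a mean GC content of 43.7%, against 47.2% in the summit windows, and its part in the differences from flanks was not tested. MGGAAR, the core bound by ETS factors (M is A or C), was in 48.7% of the peaks, 25.9% of the flanks and 46.0% of all peaks. AGGTCA, the hexamer of nuclear receptors, was in 13.0% of the peaks, 6.41% of the flanks and 11.8% of all peaks. CAGCTG, an E-box of the type bound by TAL1 and MYOD, was in 7.83% of the peaks, 4.11% of the flanks and 7.68% of all peaks. A composite of an E-box end and a GATA site at a fixed spacing, as bound by TAL1 together with a GATA factor, was in 2.57% of the peaks and 0.494% of the flanks, and it contains WGATAR.

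The forkhead motif TGTTTAC was in 96 of the 2528 peaks, in 1.58% of the flanks and in 2.60% of all peaks. ACAAAG, of the TCF and SOX families, was in 9.06% of the peaks and 9.26% of the flanks. WTATGC, a control with no factor intended, was in 4.35% of the peaks and 7.28% of the flanks. The ETS core was in 46.4% of the deep intronic peaks with WGATAR and in 52.4% of those without.

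Of the 20 motifs, 1 differed between deep and nearer introns at an adjusted p under 0.05 (5% of the panel). GGGCGG, the GC box bound by SP factors, was in 2.33% of deep intronic and 3.64% of nearer intronic peaks, a difference of -1.30 points (interval -2.00 to -0.52, Fisher's exact test adjusted p = 0.0290 over the 20 motifs). Base composition moved with it: the 101-base windows had a mean GC content of 47.2% ± 6.80 (SD over peaks) in deep introns and 48.9% ± 7.18 in nearer introns, and the part of this gap in the result was not tested. The call was lost when the optimal list was replaced by replicate 1's or replicate 2's own, each with 0 motifs called, and in 6 of the other 8 alternatives. With a limit of 25 kb or with the exons of all genes, 1 motif was called, and which one was not recorded. TGTTTAC was 1.04 points more frequent in deep than in nearer introns (interval 0.25 to 1.93, adjusted p = 0.102, Fisher's exact test), and the other 18 motifs had an adjusted p of 1.

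The strength of deep intronic peaks was close to that of the other intronic and desert peaks. Their median rank was 11636.5, against 11102.5 for nearer introns and 11488 for deserts. The strongest 1000 peaks included 3.76% of the deep intronic, 4.46% of the nearer intronic and 4.78% of the desert peaks. These were 95 deep intronic peaks, and the strongest 100 included 7 deep intronic peaks. The share with WGATAR was lower at weaker ranks, from 76.1% in the strongest of 5 equal rank groups through 65.8%, 61.1% and 57.4% to 44.9% in the weakest. Compared within these rank groups, the difference in WGATAR share was 0.76 points from nearer introns (Cochran-Mantel-Haenszel chi-square test, adjusted p = 0.784) and 2.51 points from deserts (adjusted p = 0.0901).

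Support for deep intronic peaks in the replicates was uneven. Replicate 1's thresholded list overlapped 501 of them by at least 1 base, or 19.8% (interval 18.3 to 21.4%), and 17.0% of all peaks. Replicate 2's list overlapped 2047 (81.0%), and 82.5% of all peaks. Both lists held 471 (18.6%), and 16.3% of all peaks, while 451 (17.8%) were in neither. The shares of all peaks in each list and in both fix their share in neither, which was close to that of the deep intronic peaks. The replicates' thresholded lists are of a later run than the optimal list. That run's own list from both replicates overlapped 2133 of the deep intronic peaks (84.4%), 84.6% of nearer intronic and 84.9% of desert peaks. The part of the change of run in the share in neither list was not tested. The authors' conservative list overlapped 1132 (44.8%), and 38.2% of all peaks. All peaks include those at promoters, where replicate 1's list held 6.14% and the list of replicate 2 held 83.6%. The share in replicate 1's list was 0.46 points above that of nearer introns (interval -1.31 to 2.30, adjusted p = 0.784, Fisher's exact test) and 2.60 points below that of deserts (interval of the difference -4.64 to -0.53, adjusted p = 0.0901). In both lists together the differences were -0.07 points from nearer introns (Fisher's exact test, adjusted p = 0.953) and -2.16 points from deserts (adjusted p = 0.0901). When overlap needed at least 0.5 of both peaks, the differences from deserts were -0.80 points for replicate 1's list and -0.52 for both lists (each adjusted p = 0.658, Fisher's exact test). None of the 8 class comparisons passed after adjustment, and 4 of them had an unadjusted p under 0.05, all against deserts. When the members were taken from replicate 2's own list, the share in replicate 1's list was 3.07 points lower than in deserts (adjusted p = 0.0115, Fisher's exact test).

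The peaks in both lists ranked higher, and held the site more often than those in replicate 2's list alone or in neither. Rank and list membership come from the same 2 replicates, so a link between them is built in. The peaks in both lists had a median rank of 2906, and 71.8% had WGATAR. The 1576 peaks in replicate 2's list alone had a median rank of 11703 and WGATAR in 60.8%. The 30 in replicate 1's list alone had a median rank of 11261.5 and WGATAR in 73.3%, and the 451 in neither had 19145 and 53.4%. Support from replicate 1 was lower in weaker rank groups, from 64.7% through 19.8% and 5.14% to 2.59%, and was 4.47% in the weakest group. In the weakest of 10 equal rank groups, 18 of 203 deep intronic peaks were in replicate 1's list, and all 18 shared bases with a stronger peak of the optimal list. In all, 211 of the 2528 peaks shared at least 1 base with another peak of the list.

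The relaxed lists, which hold 300000 candidate positions per replicate, gave signal scores without a unit. Replicate 1's relaxed list contained 77.8% of nearer intronic and 82.0% of desert peaks. Of the 2528 deep intronic peaks it contained 2032 (80.4%), and replicate 2's relaxed list contained 2526. Among the 2030 in both, the score ran from 4.28 through a median of 10.6 to 75.4 in replicate 1, and from 5.72 through 30.9 to 207 in replicate 2. The median ratio of replicate 2 to replicate 1 was 2.86 for deep intronic, 3.08 for nearer intronic and 2.81 for desert peaks. Each replicate's score is on the scale of its own run, so a ratio away from 1 does not measure a difference in binding. Across the 2030 peaks Spearman's rho was 0.487, as a description of peaks that share the same 2 libraries and were selected on them.

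**Figure D2:**
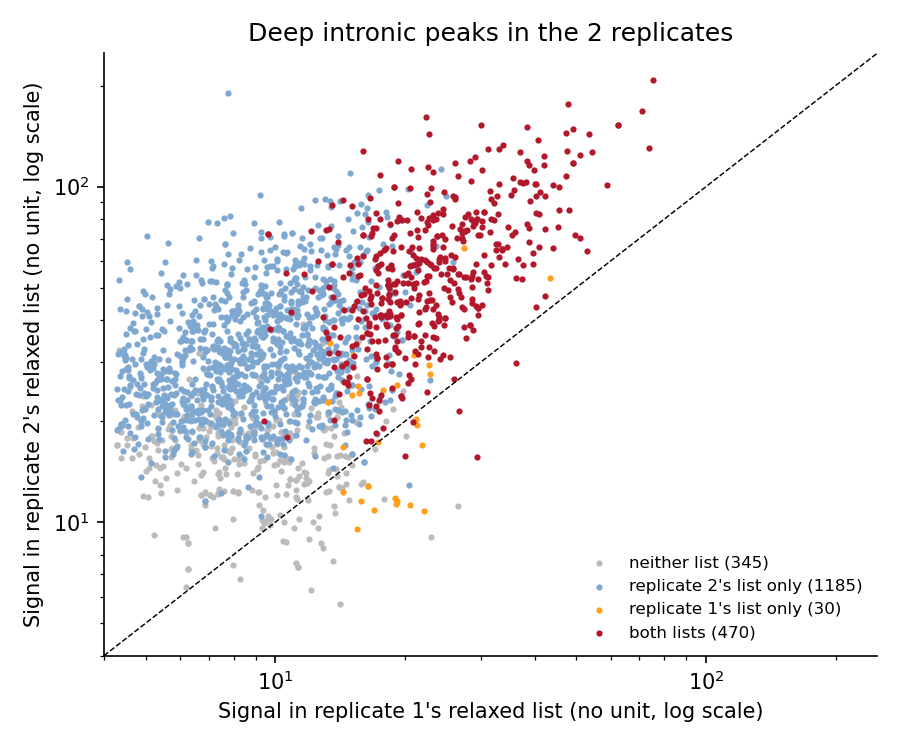
Signal score of each deep intronic peak in replicate 1's relaxed list (x, log scale, no unit) and replicate 2's (y, log scale, no unit), coloured by the thresholded lists that hold it, for the 2030 peaks in both relaxed lists. The dashed line marks equal scores, and most points lie above it.

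The strongest deep intronic peak lay in the first intron of St3gal4, a sialyltransferase gene, at chr9:35059021-35059356, 57.7 kb from the nearest start site. It had rank 8, with a score of 75.4 in replicate 1 and 207 in replicate 2, and held rank 19 and rank 13 in those lists. Intron 13 of Bmper, which encodes a secreted regulator of BMP signalling in endothelium, held the peak of rank 26 (71.1 in replicate 1 and 167 in replicate 2). Plxnc1, a semaphorin receptor gene, had the peak of rank 61 (62.6 and 152). These 3 peaks were high in both replicates and in the conservative list.

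Fars2, which encodes a mitochondrial phenylalanyl-tRNA synthetase, had the peak of rank 78 (49.2 in replicate 1 and 149 in replicate 2). It lies inside the annotated span of Fars2 but in no transcript of the basic set, as 1 of 79 such members, so its intron was not assigned. The GTPase-activating protein gene Arhgap26 had rank 89 (73.5 and 130), and Klf7, a zinc-finger transcription factor gene, had rank 93 (53.4 and 144). Zbtb16, another zinc-finger factor gene, had rank 102 (47.2 and 144). Itpr1, the gene of an intracellular calcium channel, had rank 105 (38.3 and 151), and Kank1, whose product organises actin at the cell edge, had rank 110 (22.4 and 161). Replicate 1's order set Kank1 apart, at rank 1948 of its relaxed list against 59 in replicate 2's.

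Ctif, which encodes a translation initiation factor, had the peak of rank 118 and differed from the rest of the strongest 15. Its score was 7.76 in replicate 1, at rank 42054, and 190 in replicate 2, at rank 25. It was absent from replicate 1's list and from the conservative list, had no WGATAR within 50 bp and had a GC content of 64.4% in its window. All 10 deep intronic summits of Ctif were outside replicate 1's list. The other 14 of the 15 strongest were in both lists and each held at least 1 site. They were completed by Flt1 (rank 133), Arhgef3 (rank 139), Syne1 (rank 140) and Ptdss1 (rank 158), which encode a receptor for vascular endothelial growth factor, a guanine nucleotide exchange factor, a protein linking the nucleus to the cytoskeleton and a phosphatidylserine synthase. Flt1 scored 54.5 in replicate 1 and 127 in replicate 2, and its window, like that of Klf7, contained the E-box and GATA composite.

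Near the distance limit the peaks were of mixed strength. The 4 members just past 50 kb were in Col13a1 (50003 bp, rank 703), Myzap (50019 bp, rank 22861), Limch1 (50070 bp, rank 20617) and Mrps27 (50088 bp, rank 14049). The 4 intronic peaks just short of it were in Armc2 (49987 bp, rank 5554), Rbfox2 (49979 bp, rank 11062), Rad54l2 (49964 bp, rank 9923) and Syn3 (49959 bp, rank 4724).

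The summits lay far from the start sites of the basic gene set, but not all lay far from those of the full set. The median distance to the nearest protein-coding start site was 90.5 kb and the largest 929 kb, in Erbb4, the gene of a growth factor receptor. The full GENCODE set adds further protein-coding transcripts, and 512 of the 2528 summits (20.3%) lay within 50 kb of a start site in it, 74 of them within 5 kb. WGATAR was near 60.7% of these 512 summits and 61.9% of the rest. The intron that held the summit, read from the longest basic transcript over it, was longer than 50 kb for 1224 summits (48.4%), with quartiles of 16.2 and 109 kb, and 14.4% of summits were in the first intron (interval 13.1 to 15.8%) and 15.2% in the second. The nearest exon of the host was a median of 9886.5 bp away. The nearest start site belonged to a host in 1810 peaks (71.6%) and to another gene in the rest. The summit base was in a soft-masked repeat in 8.70% of deep intronic, 9.75% of nearer intronic and 8.93% of desert peaks.

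Peaks were sparser at larger distances, and the share with the site did not follow the same course. Deep introns span 387 Mb outside assembly gaps and held 6.54 peaks per Mb (exact Poisson interval 6.29 to 6.80). Nearer introns held 13.1 per Mb and gene deserts 3.64, so deep introns were 1.80-fold as dense as deserts (interval 1.71 to 1.89) and 0.501-fold as dense as nearer introns. The intervals cover counting error only, and summits cluster. From 50 to 75 kb there were 9.55 deep intronic peaks per Mb, and beyond 300 kb 2.42. Deep intronic peaks lay a median of 90510.5 bp from a start site and desert peaks 122112 bp, so the ratio to deserts is not at like distance. The share with WGATAR in the 6 distance classes was 60.2%, 65.3%, 63.2%, 64.1%, 55.3% and 56.2%, with overlapping intervals between neighbours. The share in replicate 1's list ran between 15.6% and 22.6% over the same classes, with no order by distance.

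**Figure D3:**
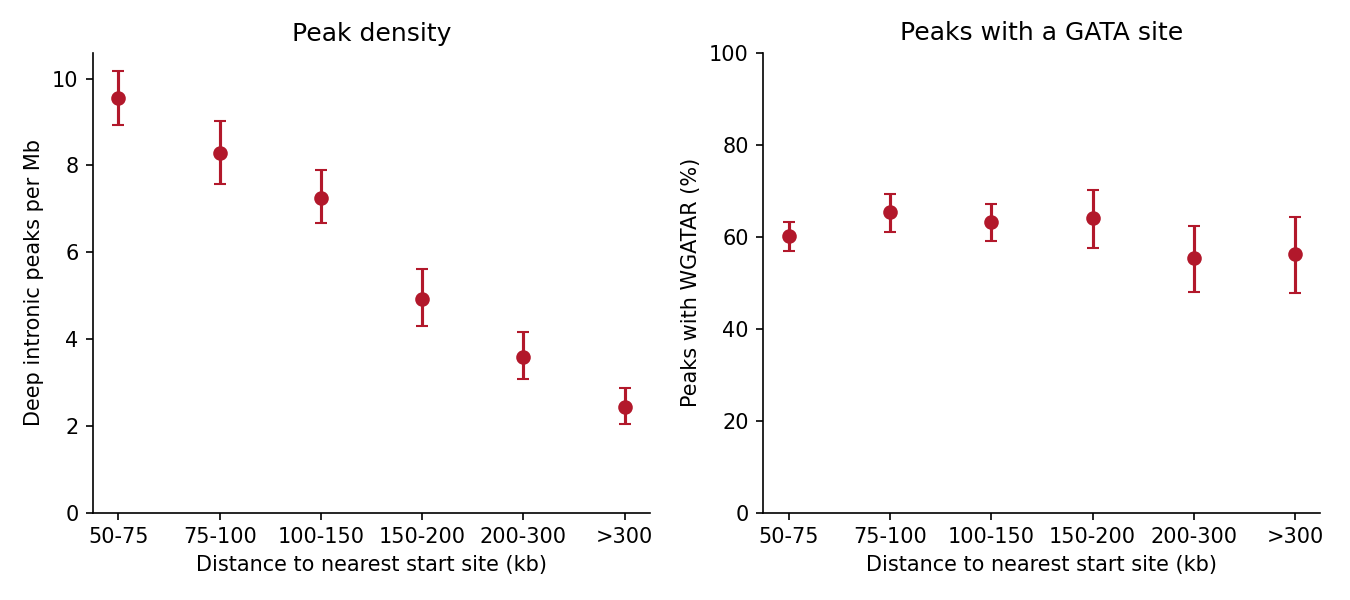
Deep intronic peaks per Mb of deep intron (left, points with exact Poisson 95% intervals) and percentage of them with WGATAR within 50 bp of the summit (right, points with 95% Wilson intervals) in 6 classes of distance to the nearest protein-coding start site. Density runs from 9.55 down to 2.42 per Mb and the motif share stays between 55.3% and 65.3%.

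The 2528 summits fell in 975 host genes, and 25 of the summits lay in more than 1 host. Of 3169 protein-coding genes with at least 1 kb of deep intron, 30.8% were hosts. A single summit was found in 433 hosts, at least 5 in 136 and at least 10 in 31, and the 136 held 1047 of the summits. Hosts were longer than other genes with deep intron, with a median of 116 kb of deep intron against 35.6 kb. The share of genes that were hosts was 10.4% at 1 to 25 kb of deep intron and 56.7% at 200 to 400 kb, while the density of summits was 11.2 per Mb in the former, 7.30 in the latter and 2.69 above 400 kb. A promoter peak, within 1 kb of a start site, was present in 30.2% of hosts (interval 27.4 to 33.1%) and in 22.8% of genes with deep intron but no deep summit (21.1 to 24.6%). Gene length differs between these groups, and its part in the gap was not tested.

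The hosts with most summits had varied functions. Bcas3, which takes part in cell movement and autophagy, had 19, of which 6 held WGATAR and 2 were in replicate 1's list. Itpr1 had 18 over 247 kb, with WGATAR in 10 and 4 in replicate 1's list. 2010111I01Rik had 17, Wwox, a fragile-site gene, 16 over 778 kb, and Vps13d, a lipid transfer protein gene, 16 over 120 kb. Rasgef1b and Rad51b, the gene of a DNA repair protein, had 15 each. Ankrd44 and Aff3 had 14 each, and 7 of those in Ankrd44 were in replicate 1's list. Arhgap26, the protein kinase C gene Prkce, Gse1 and the transcription factor gene Nfib had 13 each. Per length, these hosts ranged from 18.6 summits per Mb of deep intron in Wwox to 101 in Vps13d, all above the 6.57 over all genes with deep intron, as their choice by number favours.

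Some hosts held dense runs of summits less than 10 kb apart. The longest runs had 11 summits in Tns1 over 33.1 kb, 11 in Man2a1 over 33.1 kb and 10 in Slmap over 32.2 kb. Their strongest members had ranks 623, 1654 and 6413. WGATAR was present in 7 of the 11 in Man2a1, a Golgi mannosidase gene, and in 5 of the 10 in Slmap. In Tns1, which encodes tensin, a protein of cell-matrix adhesions, it was present in 0 of 12. All 12 Tns1 summits lay within 50 kb of a protein-coding start site of the full gene set, 2 of them within 5 kb. The 12 Tns1 windows had a mean GC content of 55.5%, against 47.2% over all members. Their strongest peak, at chr1:74031109-74031343, scored 17.5 in replicate 1 and 108 in replicate 2 and was in both lists, as was the peak of rank 1215 (23.6 and 80.2). The other 10 were not in replicate 1's list. Tns1 and Bcas3, with a run of 5 without a site, were singled out after their values were seen. Summits of a run are not all separate regions, since some of their peaks share bases. In Tns1, chr1:74008489-74008848 overlaps chr1:74008690-74009049, and chr1:74020336-74020695 overlaps chr1:74020540-74020899. In the Bcas3 run, chr11:85511290-85511649 overlaps chr11:85511490-85511849. In all, 1344 summits (53.2%) had no other deep intronic summit within 10 kb.

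**Figure D4:**
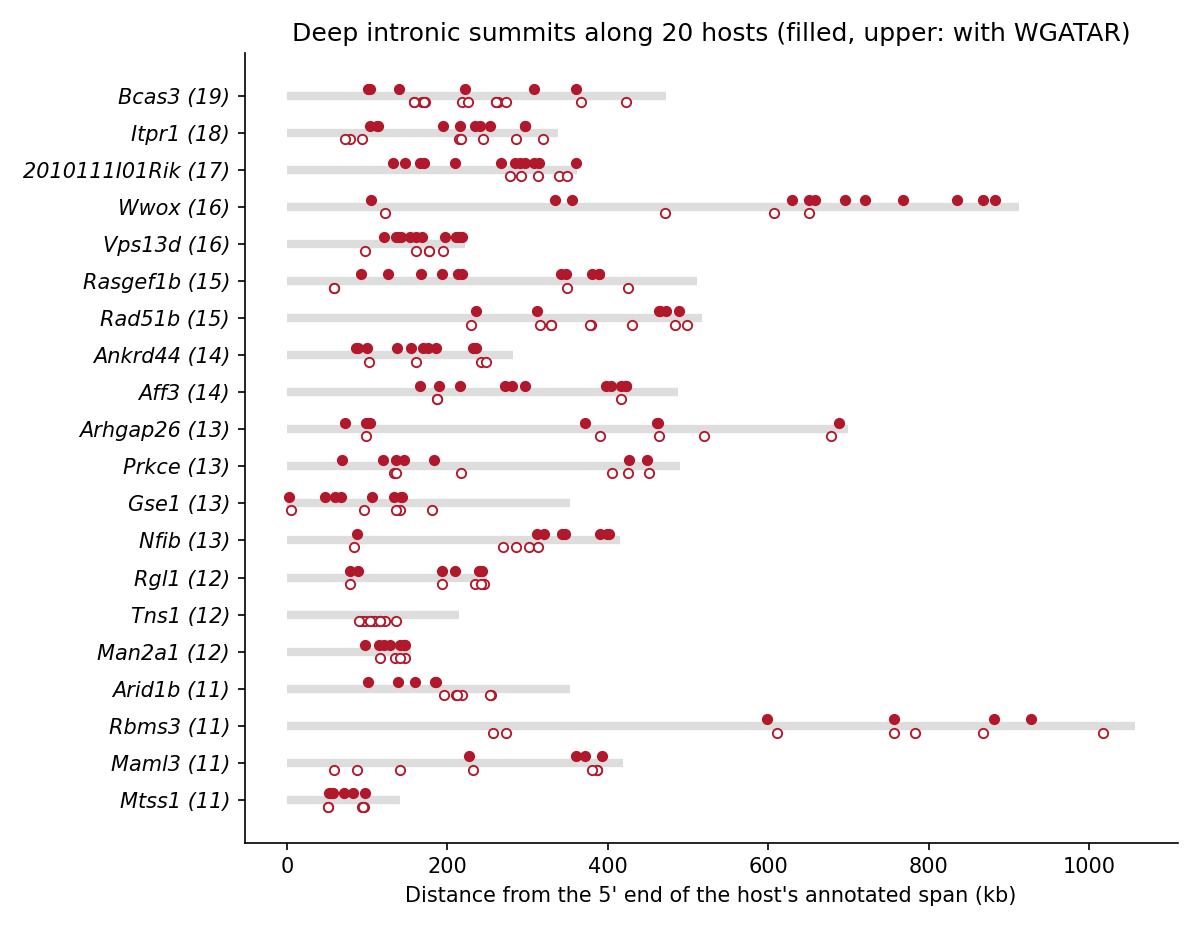
Deep intronic summits along the 20 hosts with most of them, by distance in kb from the 5' end of the host's annotated span (grey bar), with the number of summits in brackets. Filled points (upper) had WGATAR within 50 bp and open points (lower) did not: Tns1 has 12 open points in 46.9 kb, and Wwox has 16 points spread over 778 kb. Gse1 has 2 summits within 5 kb of the 5' end of its span, which is a start site of the full gene set and not of the basic set.

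Gene lists by function differed in how densely their deep introns were occupied. The lists were chosen with earlier results on these peaks known, and their counts are descriptions, not tests of the lists. They are set beside the 30.8% of genes and 6.57 summits per Mb over all 3169 genes with at least 1 kb of deep intron. Gene length differs widely between the lists, so a share of hosts and a density can point different ways. Density also differed by deep intron length, from 11.7 per Mb in genes with 50 to 100 kb to 2.69 above 400 kb, so 6.57 is a reference over genes of all lengths and not a value matched to each list. The intervals cover counting error only. The lists also share genes, so they are not separate groups. Mecom, Meis2 and Meis1, with 7, 6 and 5 summits, count in both the endothelial and the transcription factor list, and other lists share genes too.

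Endothelial genes had the highest density of the 9 lists, at 25.5 summits per Mb (exact Poisson interval 19.1 to 33.2), with 14 of 29 genes as hosts and a median of 0 summits per gene. Flt1 had 7 summits, 4 with WGATAR and 1 in replicate 1's list. Its peaks at chr5:147574571-147574718 and chr5:147574669-147575028 share bases, so the summits are not all separate regions. Tjp1, of the tight junction, had 4 with a best rank of 266, and Erg, an ETS factor gene of endothelium, had 4 with a best rank of 462. Mecom and Meis2, transcription factor genes, had 7 and 6 summits with best ranks of 563 and 694. Mrc1, Stab2, Pecam1 and Vwf, which mark sinusoidal or other endothelium, had deep intron but no deep intronic summit.

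Transcription factors and cofactors were hosts in 45 of 57 genes, at 17.9 summits per Mb (interval 15.4 to 20.7). Klf7 (2 summits) and Zbtb16 (5 summits) had the best ranks, 93 and 102. In Zbtb16 the summits fell in a 21.4 kb run, and its next strongest, of rank 752, scored 45.2 in replicate 1 and 75.5 in replicate 2. Arid1b, of a chromatin remodelling complex, had 11 summits. Ppargc1a, Hnf4g and Foxo3 were among the 12 genes with none.

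Actin and small GTPase regulators were hosts in 31 of 49 genes, at 12.1 summits per Mb (interval 10.04 to 14.4). Arhgap26 led with 13 summits, followed by rank by Arhgef3 (3 summits), Tns3 (9, best rank 197), Tns1 (12) and the formin gene Diaph3 (2, best rank 803). Genes of cAMP, calcium and lipid kinase signalling were hosts in 29 of 37, at 10.5 per Mb (interval 8.67 to 12.7). The best ranks were in Itpr1, the calcineurin gene Ppp3ca (240), the kinase anchor gene Akap13 (368), Prkce (830) and the phosphodiesterase gene Pde4b (1301).

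Insulin and growth factor signalling genes were hosts in 18 of 28, at 9.07 summits per Mb (interval 6.85 to 11.8). The insulin receptor gene Insr had 2 summits, both in replicate 1's list, with a best rank of 769. Fgfr2, a fibroblast growth factor receptor gene, had 9, of which 0 were in replicate 1's list. All 9 lay in a 2909 kb intron of 1 of its 4 basic transcripts, at least 1980 kb beyond the ends of the other 3, so Fgfr2 is their host through that transcript alone. Some of the 9 also lay in another host gene, Chst15 or Lhpp. Without Fgfr2 the list had 47 summits, at 9.03 per Mb. Ptprg and Ptprm, of receptor phosphatases, had 8 and 7, and Tbc1d1 had 2.

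Densities were lower in the next 3 lists, between 5.28 and 7.68 per Mb. Matrix and stellate or mesenchymal genes were hosts in 22 of 32, at 7.68 per Mb (interval 5.96 to 9.73), led by Bmper (5 summits), Egfem1 (best rank 501), the basement membrane collagen gene Col4a1 (542), Ntn4 (583) and Smoc1 (899). Immune and macrophage genes were hosts in 14 of 31, at 7.29 per Mb (interval 5.30 to 9.78), led by Skap2 (best rank 805), Lrmda (1225), Tbxas1 (1662), Prkcb (1715) and Skap1 (2749). Hepatocyte enzymes, transporters and plasma proteins had deep intron in 15 of 56 genes, and 4 of the 15 were hosts, at 5.28 per Mb (interval 2.12 to 10.9). These were Cyp7b1, a bile acid enzyme gene, with a best rank of 7611, the fatty acid elongase gene Elovl6 (9551), Enpp2 (11644) and Dpyd (18778). Cps1 and Abcb11 were among those with deep intron but no deep summit.

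Neuronal adhesion and synaptic genes, which are among the longest of the genome, were the sparsest list. They were hosts in 29 of 56 genes but held 58 summits in 46.2 Mb of deep intron, or 1.26 per Mb (interval 0.95 to 1.62). The best ranks were in Astn2 (1197), Syt1 (1329), Ptprt (1629), Rbfox3 (1672) and Cdh13 (1991, with 8 summits). Cdh13 encodes a cadherin that endothelial cells also express.

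**Figure D5:**
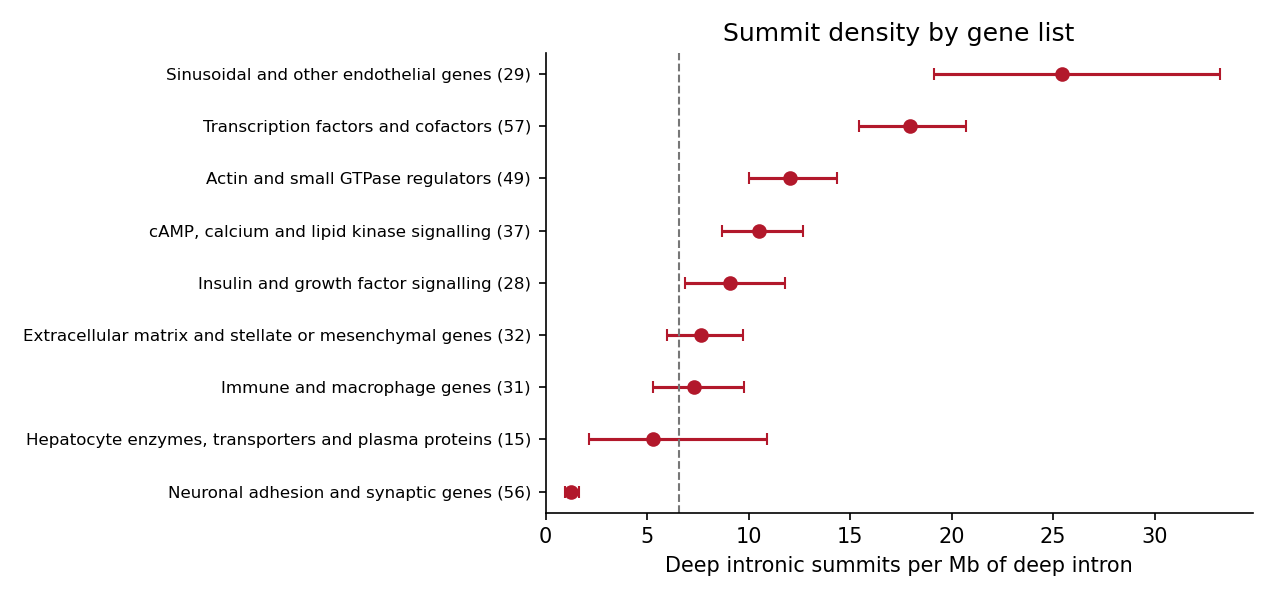
Deep intronic summits per Mb of deep intron in 9 gene lists (points, with exact Poisson 95% intervals), with the number of genes that have at least 1 kb of deep intron in brackets. The dashed line marks 6.57 per Mb over all such genes, and the lists run from 1.26 (neuronal) to 25.5 (endothelial).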

How the data were processed

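Peak lists on mm10 were deposited by the authors for 2 samples. The signal of each peak is the authors' peak caller's value, deposited without a unit, and was used to rank and describe peaks. The deposited IDR score (irreproducible discovery rate) was at least 537 in the optimal list, and 540 in each replicate's list. Per the file headers and README tables, the optimal, conservative and relaxed lists are of an earlier run and each replicate's thresholded list is of a later run, so overlap between them also crosses runs. The sources used here do not give the aligner or peak caller, and read depth is unknown.

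The optimal list held 24083 peaks, and 33 outside chromosomes 1 to 19 and X were left out. Summits were placed against the GRCm38.p6 sequence (mm10) and the basic gene set of GENCODE mouse release 21. Gene entries with the same symbol on a chromosome were counted as 1 gene. Deep introns were compared with nearer introns and deserts by two-sided Fisher's exact tests with Newcombe intervals, and within 5 rank groups by the Cochran-Mantel-Haenszel chi-square test, adjusted by the Benjamini-Hochberg method over 8 comparisons, or 20 for motifs. Overlap meant at least 1 shared base, and a member's replicate score is that of the strongest overlapping relaxed peak. Since 177 members share a relaxed peak of replicate 1 with another member and 202 one of replicate 2, such scores repeat. The code was tested on simulated data. Python 3.11.15, scipy 1.17.1, statsmodels 0.14.6 and pysam 0.24.0 were used.

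The members, the gene lists and the motifs were chosen with earlier results of these data known. The text names the strongest 15 members except for an item that is not reported here, the 12 hosts with most summits (13 with ties), up to 5 hosts of each list by best rank, 4 peaks on each side of the distance limit, and sequences of 9 of the 10 strongest members outside chromosome 18. The other sequences, the runs, Erbb4, Dis3l2, Cacna2d1 and list genes without a summit were named after their values were seen. Alternatives were other distances, all genes' start sites or exons, other lists, each replicate's own list, a wider window, AGATAA, 1 summit per run, stricter overlap and, chosen after seeing the data, the start sites of the full gene set.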

Additional observations from a re-analysis of the deposited data

How the results depend on the processing

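Of 136 recomputed values, 85 kept their direction and side of the threshold or stayed near the reported value. Differences from nearer introns were small and changed sign under several settings, none past the threshold except in replicate 2's own list. With a limit of 25 kb there were 4427 deep intronic peaks in 1722 hosts, and the differences from nearer introns were -0.68 points for WGATAR, -0.87 at like rank and 0.71 for both lists. With 100 kb there were 1091 peaks in 406 hosts, with -0.097 points for WGATAR, -0.26 for replicate 1's list and 0 motifs called. With the start sites of all genes there were 1177 peaks in 534 hosts, a density 2.47-fold that of deserts, 0 motifs called and 0.24 points from nearer introns for both lists. There the deficits against deserts passed the threshold, at -5.93 points for replicate 1's list (adjusted p = 0.0105, Fisher's exact test) and -5.07 for both lists (adjusted p = 0.0195). With the exons of all genes the difference for both lists from nearer introns was 0.038 points. In the conservative list there were 1131 peaks in 625 hosts, with -1.02 points from nearer introns for WGATAR, -0.46 at like rank, -2.215 for replicate 1's list and 0 motifs called. At an IDR of at most 0.01 these were -1.36 for WGATAR, -0.87 at like rank, 0.20 for both lists and 0 motifs. The later run's list gave -3.05 points against deserts for replicate 1's list (adjusted p = 0.0376, Fisher's exact test) and 0 motifs. A window of 100 bp gave 3.07 points over deserts for WGATAR and 3.00 at like rank (both adjusted p = 0.0327, Fisher's exact and Cochran-Mantel-Haenszel chi-square tests). With 1 summit for each run within 1 kb the differences from nearer introns were -0.47 and -0.11 at like rank. Overlap of at least 0.5 of both peaks gave 0.66 points for both lists, and the deficits against deserts shrank to -0.80 points for replicate 1's list and -0.52 for both lists. The WGATAR excess over deserts was 0.28 points at 100 kb (0.28 at like rank), 0.62 with all genes' start sites (0.88), 1.18 at an IDR of at most 0.01 (1.51), 1.32 with 1 summit per run (1.55), 1.54 at 25 kb (1.39) and 1.69 for AGATAA (1.67). The deficits in the conservative list were -4.40 and -4.185 points (adjusted p = 0.119 for both, Fisher's exact test). With the start sites of the full gene set, an alternative chosen after seeing the data, there were 2016 peaks in 816 hosts, 0 motifs called and a density 1.655-fold that of deserts. The cause of these changes was not tested.

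When the members were taken from the list of a single replicate, leaving out the other, the number of members ran from 525 (replicate 1's list) to 2601, the hosts from 375 to 985 and the density over deserts from 1.51 to 1.86. WGATAR differences ran from -3.01 to 2.59 points against nearer introns, -2.33 to 2.83 at like rank, 1.94 to 3.33 against deserts and 2.18 to 3.51 at like rank. In replicate 2's list the last 4 passed the threshold (largest adjusted p = 0.0270), and in replicate 1's list none did (adjusted p = 0.492 for each, Fisher's exact or Cochran-Mantel-Haenszel chi-square test). The shares in replicate 1's list and in both lists are then the same measure, at -3.07 points against deserts and 0.26 against nearer introns, and 0 motifs were called in either list. Replicate 1's own list gives no value for its own support. No paired analysis was possible because there is 1 group. Replicate 1's relaxed list held 2032 of the 2528 members. For the 496 absent from it, no score is given, and without read depth a weak signal cannot be told apart from none.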

Other observations

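Chromosome X had the lowest density of deep intronic peaks. It held 31 summits in 18.2 Mb of deep intron, or 1.70 per Mb (exact Poisson interval 1.16 to 2.42). The autosomes together held 6.78 per Mb (6.52 to 7.05) and ranged from 5.03 on chromosome 14 to 8.64 on chromosome 11. The interval of X lay below that of every autosome. Sex was not collected per the labels.

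A small set of deep intronic summits lay near the start of a gene that is not protein-coding. There were 59 within 1 kb of such a start site (2.33%). Of these, 37 (62.7%) held WGATAR, their median rank was 10386, their mean GC content was 49.5% and 12 were in replicate 1's list. In GC content they were nearer to the other deep intronic peaks (47.2%) than to protein-coding promoter peaks (61.9%).

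Few members were in replicate 1's thresholded list alone. The strongest deep intronic peaks in replicate 1's list but not in replicate 2's were in Dis3l2 (rank 1548, with 43.5 in replicate 1 and 53.4 in replicate 2) and in Cacna2d1, a calcium channel subunit gene (rank 1673, 27.4 and 65.7). In the relaxed lists they held ranks 251 and 1129 in replicate 1 and 3771 and 2257 in replicate 2. Replicate 2's thresholded list, of another run, held 26314 peaks. The 30 peaks in replicate 1's list alone had median scores of 17.5 in replicate 1 and 19.9 in replicate 2. Their mean GC content was 42.0%, against 48.0% for the 1576 in replicate 2's list alone. The part of base composition in this difference was not tested.

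Where 2 sites lay in a window, 156 of 291 pairs (53.6%) read in the same direction, 77 were back to back and 58 facing. The most frequent spacing, from the first base of a site to that of the next, was 5 bp in the same direction, in 12 peaks. At that spacing the last base of a site is the first of the next, so these are overlapping matches. Pair directions and spacings in nearer introns, flanks or all peaks are not given here, so no preferred arrangement can be read from them.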
